A study of Rattus norvegicus with 22 samples.

Results

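Microglia, the resident macrophages of the brain, were compared after 5 days of culture with serum and straight after isolation. The FCS 5d cells (n = 4) spent 3 days in a serum-free medium called TIC and then 5 days in that medium with 10% fetal calf serum. The Acute cells (n = 3) were lysed fresh, with 0 days of culture. Members were chosen by their titles, FCS 5d 1 to 4 and Acute 1 to 3, and are 7 of the 22 libraries of the series. The other 15 libraries are serum-free cultures of 8 days (TIC, n = 6) and cultures in which serum was present for the last 1 day (FCS 1d, n = 5) or the last 3 days (FCS 3d, with n = 4). All cells came from the brains, without cerebella, of Sprague-Dawley rats at postnatal day 21, perfused and then panned on an antibody to CD11b (clone OX42), so a panned isolate can hold any other CD11b-bearing blood cell. The labels do not give the composition of TIC medium. Culture, its length and the serum all differ between FCS 5d and Acute and cannot be told apart in this comparison. Levels are FPKM, which count sequenced fragments per length of transcript and per total of fragments.

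In the brain, microglia carry a set of receptors and secreted proteins, among them P2ry12, Tmem119 and Cx3cr1, that other macrophages mostly lack and that depends on signals from neighbouring brain cells, including TGF-beta and ligands of the receptor Csf1r. Removed from the brain, they are known to lose this homeostatic set in culture. Serum, which contacts microglia in the living brain only where the blood-brain barrier fails, brings lipoproteins, growth factors and many other plasma proteins.

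A gene was tested where 3 or more libraries held it at 1 FPKM or above. Of the 9691 such genes, 3861 (39.8%) differed between FCS 5d and Acute, of which 1162 (12.0%) were higher in FCS 5d and 2699 (27.9%) were lower (two-sided limma test, p adjusted by Benjamini-Hochberg and under 0.05). Changes over 2 on the log2(FPKM + 1) scale were called for 306 higher and 840 lower genes. In 3772 genes (38.9%) the 4 FCS 5d values lay entirely above or below the 3 Acute values. All changes stand against a median of log2 -0.38 over the tested genes. Median-of-ratios rescaling gave 1889 higher and 1833 lower calls, quantile normalization gave 1992 and 1715, and a term for high or low summed FPKM gave 1547 and 1220. Summed FPKM ran from 335470 to 412145 in FCS 5d and from 564301 to 696703 in Acute, so it divides these groups completely. The size of the summed-FPKM term is thus set only within TIC and FCS 1d, where TIC 5, TIC 6 and FCS 1d 5 lay above 500000. Every result with that term carries this difference over to the Acute libraries, and whether it holds for them was not tested. Tested genes listed at 0 numbered 1295 in FCS 5d 1 and 509 to 564 in the other FCS 5d libraries, against 1072, 934 and 527 in Acute 1, 2 and 3. FCS 5d 1, Acute 1 and Acute 2 are thus libraries with many zeros and the other 4 libraries with few, a division made after the values were seen. Cystatin C alone (Cst3) took 0.208 to 0.511% of FPKM in FCS 5d and 3.94 to 17.2% in Acute. Across genes, whose values are not independent, the Pearson correlation was 0.918 to 0.974 between FCS 5d libraries, 0.685 to 0.808 between FCS 5d and Acute, and 0.838 to 0.861 between Acute libraries. The labels describe 2 rounds of library preparation and sequencing, each with every condition, but not which sample was in which. They also do not say which samples came from the same animals, so the p-values measure only the spread between samples. That spread is pooled over all 22 libraries. For a gene at 0 in nearly every culture it can therefore be smaller than the spread of its Acute values. A fit of the 2 groups only gave 2807 calls, 715 higher and 2092 lower. FPKM carry no read totals, so depth is unknown.

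**Figure D1:**
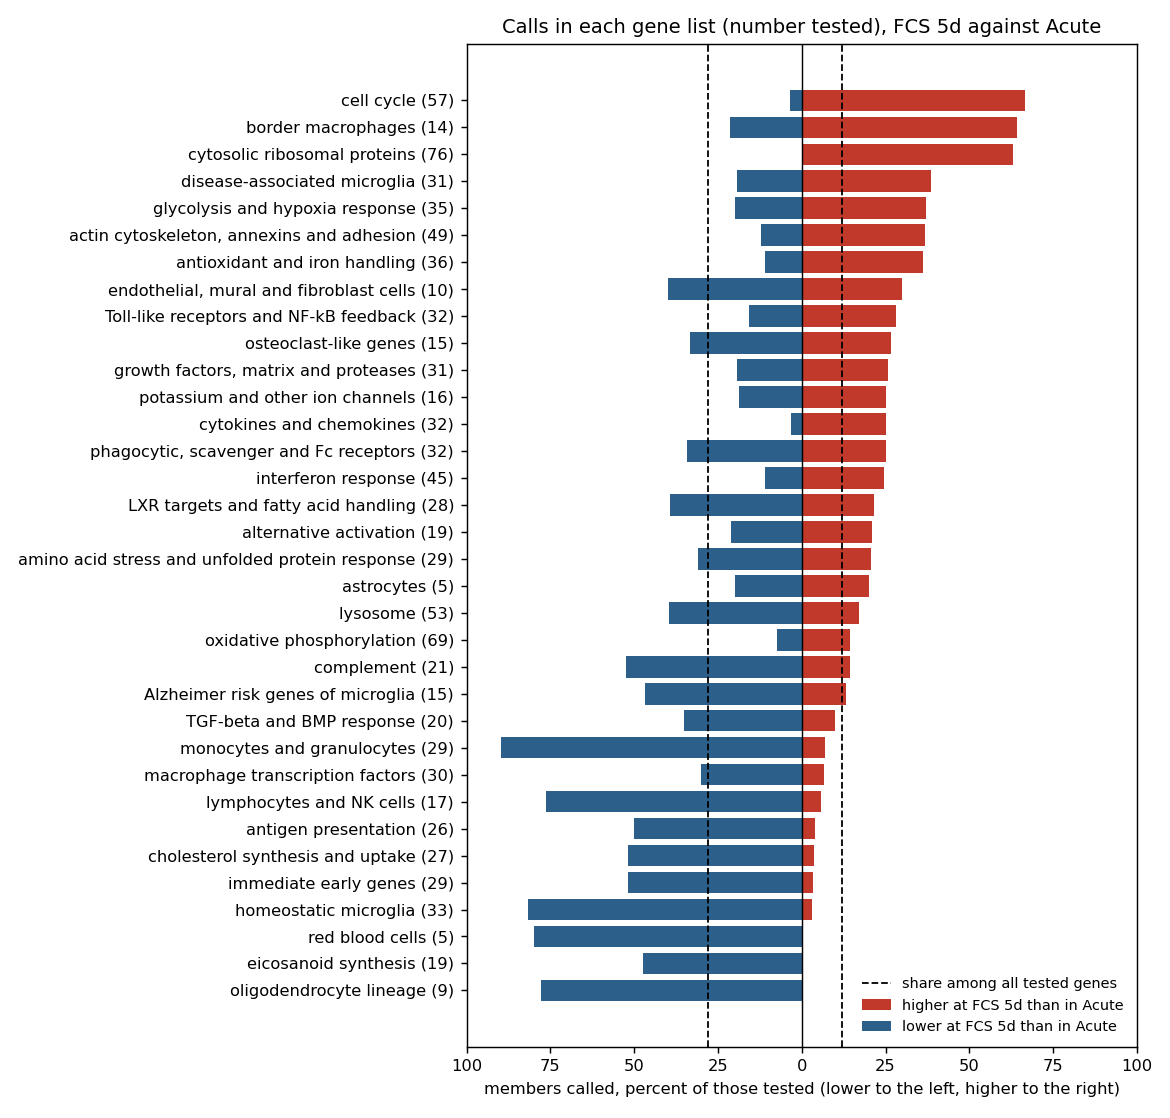
Share of each gene list called between FCS 5d (n = 4) and Acute (n = 3), in percent of the tested members (number in brackets), with calls higher in FCS 5d to the right and calls lower to the left. Dashed lines mark the shares among all tested genes, 12.0% higher and 27.9% lower. The lists of the cell cycle, border macrophages and ribosomal proteins reach farthest right, and those of monocytes and granulocytes, homeostatic microglia and red blood cells farthest left.

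Genes of resident microglia had low levels in FCS 5d and high levels in Acute. The homeostatic list had 33 tested members, of which 27 were lower in FCS 5d, 1 was higher and 5 were not called. Of all tested genes 27.9% were lower and 12.0% higher. The median of the list was log2 -2.57, against -0.38 over all tested genes. The list took 1.73 to 3.14% of FPKM in FCS 5d and 10.7 to 25.9% in Acute. P2ry12, a receptor for ADP that steers microglial processes, stood at 8.71, 27.0, 7.28 and 47.7 FPKM in FCS 5d 1 to 4, against 946, 827 and 321 FPKM in Acute 1 to 3. The groups did not overlap, and FCS 5d 4 and FCS 5d 2 kept the most (log2 -5.12 ± 0.55 SE, limma adjusted p = 1.8e-07). Tmem119, a surface protein used to tell microglia from other macrophages, stood at 2.01, 21.3, 9.72 and 15.9 FPKM in FCS 5d 1 to 4, against 1777, 759.5 and 1856 FPKM in Acute 1 to 3. Its lowest value was in FCS 5d 1 and every Acute value was far above every cultured one (log2 -7.02 ± 0.48 SE, limma adjusted p = 7.3e-11). The fractalkine receptor Cx3cr1, through which neurons signal to microglia, stood at 16.4, 48.1, 20.6 and 88.9 FPKM in FCS 5d 1 to 4, against 2621, 3093 and 1855 FPKM in Acute 1 to 3, also without overlap (log2 -6.10 ± 0.80 SE, limma adjusted p = 2.8e-06). Sall1, a transcription factor that defines microglial identity, stood at 2.98, 1.5, 1.89 and 2.94 FPKM in FCS 5d 1 to 4, against 126, 107 and 45.2 FPKM in Acute 1 to 3. All 4 cultured values lay within a narrow low range (log2 -4.72 ± 0.35 SE, limma adjusted p = 2.8e-10).

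Other members of the list went the same way. The fructose transporter Slc2a5 stood at 1.01, 1.06, 1.05 and 2.91 FPKM in FCS 5d 1 to 4, against 790.2, 858 and 347 FPKM in Acute 1 to 3. FCS 5d 4 was again the highest of the cultures and the groups stayed apart (log2 -8.01 ± 0.47 SE, limma adjusted p = 4.8e-12). Ltc4s, the synthase of the lipid mediator leukotriene C4, stood at 0, 0, 0 and 0.971 FPKM in FCS 5d 1 to 4, against 829, 275 and 911 FPKM in Acute 1 to 3. FCS 5d 4 was thus the only culture above 0 (limma adjusted p = 2.5e-12). The lysophospholipid receptor Gpr34 averaged 64.0 ± 30.7 FPKM in FCS 5d and 3192 ± 2013 FPKM in Acute (SD, n = 4 and n = 3, log2 -5.47 ± 0.41 SE, limma adjusted p = 4.7e-10). P2ry13, a second ADP receptor, fell by 4.14 on the log2(FPKM + 1) scale, and the matrix protein Sparc fell by 6.85. Gal3st4, a sulfotransferase among the 12 largest falls, stood at 0, 0.174, 0 and 0 FPKM in FCS 5d 1 to 4, against 539, 517 and 151 FPKM in Acute 1 to 3, and so was close to absent from every culture (limma adjusted p = 4e-12). The potassium channel Kcnk13, which microglia use to set their resting potential, averaged 15.2 ± 3.17 FPKM in FCS 5d and 70.9 ± 16.1 FPKM in Acute (SD). Itgam, the CD11b chain used for panning, was the 1 higher member at 32.2, 61.5, 67.5 and 68.7 FPKM in FCS 5d and 3.97, 9.14 and 87.2 FPKM in Acute. Its Acute values spread widely and overlapped the cultures (log2 1.77 ± 0.55 SE, limma adjusted p = 0.014). Its call was lost without Acute 1 (adjusted p = 0.179) and without Acute 2 (adjusted p = 0.0832), without FCS 5d 1 and Acute 2 together (adjusted p = 0.058), in a fit of the 2 groups only (adjusted p = 0.13) and with the summed-FPKM term (adjusted p = 0.126). Among the libraries with few zeros the change was log2 -0.40 (adjusted p = 0.424).

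**Figure D2:**
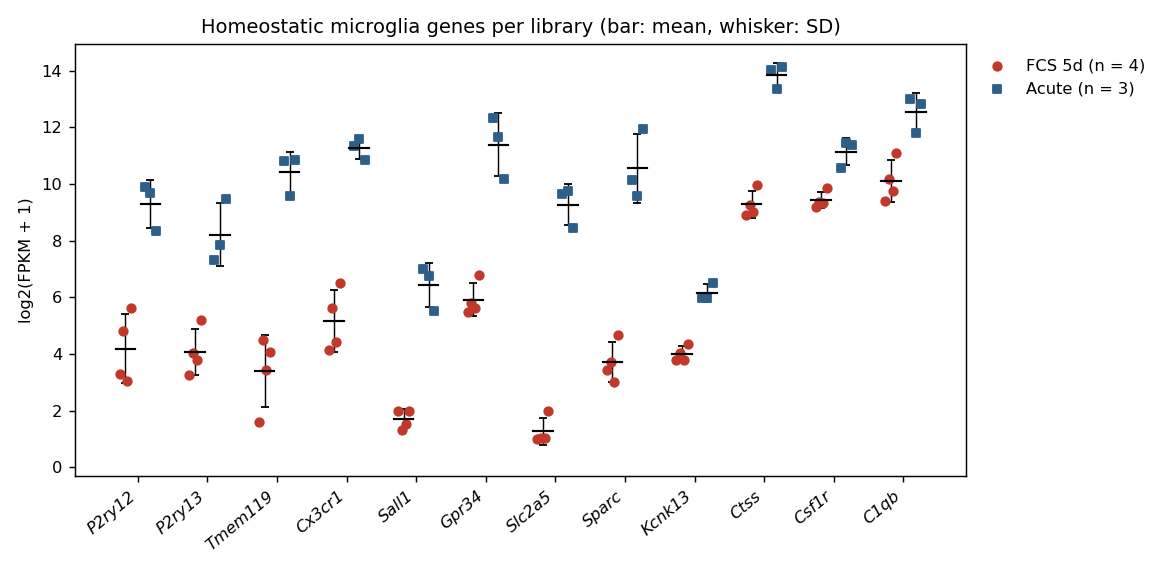
Values of 12 genes of resident microglia on the log2(FPKM + 1) scale in each FCS 5d library (n = 4, circles) and each Acute library (n = 3, squares), with the group mean (bar) and SD (whisker). Every FCS 5d point lies below every Acute point of the same gene, and Slc2a5 and Sall1 reach the lowest levels.

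Csf1r, Aif1 and Trem2, which other macrophages also express, were lower in FCS 5d as well. Csf1r, the receptor on which microglia depend for survival, stood at 582, 664, 634 and 921 FPKM in FCS 5d 1 to 4, against 1528, 2760.2 and 2687 FPKM in Acute 1 to 3, so the cultures stayed high in absolute level (log2 -1.70 ± 0.26 SE, limma adjusted p = 1.6e-05). The actin-binding protein Aif1, known as IBA1, stood at 647, 1147, 1025 and 1310.5 FPKM in FCS 5d 1 to 4, against 3208, 1591 and 2564 FPKM in Acute 1 to 3 (log2 -1.24 ± 0.39 SE, limma adjusted p = 0.014). That call was lost without Acute 1 (adjusted p = 0.079), without FCS 5d 1 (adjusted p = 0.0526), with quantile normalization (adjusted p = 0.196) and with the summed-FPKM term (adjusted p = 0.487). Trem2, a lipid-sensing receptor, stood at 188, 308, 273 and 363 FPKM in FCS 5d 1 to 4, against 1736, 665 and 973 FPKM in Acute 1 to 3 (log2 -1.91 ± 0.55 SE, limma adjusted p = 0.0086). The Trem2 call was lost without Acute 1 (adjusted p = 0.0619) and with the summed-FPKM term (adjusted p = 0.866). Of 30 tested macrophage transcription factors, 2 were higher and 9 lower, against 12.0% and 27.9% of all tested genes. With the summed-FPKM term the counts were 5 and 5. Besides Sall1 the falls included Batf3, which dendritic cells need, at 0, 0.955, 0 and 0 FPKM in FCS 5d and 13.1, 2.58 and 12.0 FPKM in Acute (log2 -2.88 ± 0.39 SE, limma adjusted p = 4e-06).

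Complement genes were lower in FCS 5d, but C1q remained abundant. C1qa, C1qb and C1qc encode the chains of the molecule that starts the classical complement pathway. C1qb stood at 667, 1147, 868 and 2189 FPKM in FCS 5d 1 to 4, against 8146, 3519 and 7317 FPKM in Acute 1 to 3. FCS 5d 4 came closest to the Acute range without reaching it (log2 -2.44 ± 0.43 SE, limma adjusted p = 0.00013). C1qa averaged 589.8 ± 132 FPKM in FCS 5d and 2893 ± 1947 FPKM in Acute (log2 -2.09 ± 0.42 SE, limma adjusted p = 0.00042), and C1qc averaged 788 ± 483 FPKM in FCS 5d and 4357 ± 2220.0 FPKM in Acute (log2 -2.57 ± 0.54 SE, limma adjusted p = 0.00069). Of 21 tested complement genes, 11 were lower and 3 higher, against 27.9% and 12.0% of all tested genes. The anaphylatoxin receptor C5ar2 stood at 0, 4.89, 6.35 and 15.9 FPKM in FCS 5d and 36.1, 44.5 and 137 FPKM in Acute (limma adjusted p = 0.00095), where FCS 5d 1 was listed at 0 and FCS 5d 4 was highest. Vsig4, a complement receptor of tissue macrophages, went the other way and stood at 7.72, 3.53, 8.47 and 2.75 FPKM in FCS 5d 1 to 4 and was listed at 0 in all 3 Acute libraries (limma adjusted p = 0.00023).

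Genes of granulocytes, red blood cells, lymphocytes and oligodendrocytes were mostly lower in FCS 5d than in Acute. S100a9, a calcium-binding protein that fills neutrophils, was listed at 0 in all 4 FCS 5d libraries, and stood at 1267, 11587 and 6765 FPKM in Acute 1 to 3. Prg2, the major basic protein of eosinophils, was listed at 0 in all 4 FCS 5d libraries, and stood at 313, 2689.8 and 1055 FPKM in Acute 1 to 3. The granule protein gene Ngp was listed at 0 in all 4 FCS 5d libraries, and stood at 156, 1094 and 407 FPKM in Acute 1 to 3. Each of these was present in every fresh isolate and listed at 0 in every culture, with Acute 2 the highest (limma adjusted p = 8.3e-16, 9.7e-15 and 2.4e-14). A gene under 1 FPKM in every cultured library of the series was tested only where all 3 Acute libraries held 1 FPKM or more. For such genes presence in Acute was a condition of the test, and the counts of lower genes below partly follow from it. At 0 in all 4 FCS 5d libraries were 15 of 29 tested monocyte and granulocyte genes, 8 of 17 lymphocyte genes and 5 of 5 red blood cell genes. By a narrower count, 126 of all 9691 tested genes were at 0 in all 4 FCS 5d libraries and above 0 in all 3 Acute libraries. Of all tested genes, 27.9% were lower and 12.0% higher in FCS 5d. Of 29 tested monocyte and granulocyte genes 26 were lower, and the list took 0.0374 to 0.0800% of FPKM in FCS 5d and 0.501 to 4.20% in Acute. Haemoglobin alpha (Hba1) was listed at 0 in all 4 cultures and stood at 995, 456 and 1361 FPKM in Acute, and the red blood cell list took 0% of FPKM in FCS 5d and 0.131 to 0.297% in Acute. Among lymphocyte and NK cell genes 13 of 17 were lower and 1 higher, but the summed share of FPKM overlapped, at 0.0388 to 0.063% in FCS 5d and 0.0428 to 0.119% in Acute. Nkg7, a granule protein of cytotoxic lymphocytes, was listed at 0 in all 4 FCS 5d libraries, and stood at 70.1, 267 and 48.3 FPKM in Acute 1 to 3, and the B cell receptor chain Cd79b stood at 1.80, 4.12, 7.05 and 4.81 FPKM in FCS 5d 1 to 4, against 67.1, 50.9 and 154 FPKM in Acute 1 to 3. Of 9 oligodendrocyte genes 7 were lower, including Mal, a proteolipid of myelin and of T cells, which was listed at 0 in all 4 FCS 5d libraries, and stood at 4.64, 46.9 and 30.8 FPKM in Acute 1 to 3 (limma adjusted p = 3.3e-07). The myelin basic protein gene Mbp was not called, at 4.03, 9.65, 4.64 and 8.57 FPKM in FCS 5d and 10.2, 5.34 and 83.4 FPKM in Acute (log2 -1.31 ± 0.65 SE, limma adjusted p = 0.11), but was lower among the libraries with few zeros (adjusted p = 0.00284), with a term for zeros (0.00915) and without Acute 2 (0.0225). Of the defining markers set for other cells, S100a9, Prg2, Ngp, Hba1, Hbb, Alas2 and Nkg7 were listed at 0 in all 4 FCS 5d libraries and present in all 3 Acute libraries. Cd3e, Mog, Gfap, Aqp4, Cldn5 and Syt1 were at 0 in the cultures too, but were too low everywhere to be tested, and Syt1 was also at 0 in Acute. Some other markers were above 0 in every culture. The monocyte gene Plac8 lay at 15.3 to 23.9 FPKM in FCS 5d and 137 to 307 FPKM in Acute, the granulocyte gene S100a8 at 1.59 to 9.52 FPKM in FCS 5d and 112 to 3348 FPKM in Acute, and the endothelial gene Pecam1 at 2.08 to 4.87 FPKM in FCS 5d and 4.53 to 21.3 FPKM in Acute. The Plac8 call was lost at a pseudocount of 0.1 (adjusted p = 0.0531) and among the libraries with many zeros (0.16), and the Pecam1 call (adjusted p = 0.0228) under 10 of 21 alternatives (0.0567 to 0.248). In bulk RNA, fewer cells of a type and less RNA per cell cannot be told apart, and the part of these transcripts in the other falls was not tested.

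Class II antigen presentation showed some of the largest falls. Class II molecules present peptides from engulfed material to CD4 T cells, and Cd74 is the invariant chain that accompanies them. Cd74 stood at 1.82, 0.639, 4.27 and 0.404 FPKM in FCS 5d 1 to 4, against 848, 3163 and 2775 FPKM in Acute 1 to 3. Every culture was close to 0 and every fresh isolate was high (log2 -9.66 ± 0.60 SE, limma adjusted p = 1.3e-11). The alpha chain RT1-Da stood at 0, 0.322, 0 and 0 FPKM in FCS 5d 1 to 4, against 355, 406 and 639 FPKM in Acute 1 to 3. RT1-Db1, its beta chain, was listed at 0 in all 4 FCS 5d libraries, and stood at 93.7, 104 and 184 FPKM in Acute 1 to 3. Neither chain was above 1 FPKM in any culture, and both were present in every fresh isolate (limma adjusted p = 3.6e-12 and 1.4e-11). In the second class II pair, RT1-Ba was listed at 0 in all 4 FCS 5d libraries, and stood at 34.9, 49.0 and 77.5 FPKM in Acute 1 to 3, and RT1-Bb was listed at 0 in all 4 FCS 5d libraries, and stood at 27.7, 22.2 and 33.6 FPKM in Acute 1 to 3. The peptide loader RT1-DMa kept more, at 49.1, 116, 78.7 and 180.4 FPKM in FCS 5d and 2164, 797 and 1287 FPKM in Acute (log2 -3.77 ± 0.50 SE, limma adjusted p = 3.1e-06). Over the whole antigen presentation list, 13 of 26 members were lower and 1 was higher, against 27.9% and 12.0% of all tested genes. The higher one was the class I light chain B2m, which averaged 969 ± 253 FPKM in FCS 5d and 473 ± 439 FPKM in Acute (SD, log2 1.42 ± 0.43 SE, limma adjusted p = 0.011) with overlapping libraries. The B2m call was lost without Acute 1 (adjusted p = 0.051), without Acute 2 (adjusted p = 0.127), without FCS 5d 1 and Acute 2 together (adjusted p = 0.255), in a fit of the 2 groups only (adjusted p = 0.0793) and with the summed-FPKM term (adjusted p = 0.0517). Among the libraries with few zeros the change was log2 -0.20 (adjusted p = 0.749). RT1 genes are a family of near-identical copies, so the division of reads among them is uncertain. Monocytes, dendritic cells and B cells also carry class II. The B cell gene Cd79b and the monocyte gene Plac8 were also lower in FCS 5d than in Acute, as described above. In TIC, Plac8 lay at 0 to 2.86 FPKM and Cd79b at 0 to 1.37 FPKM, below every FCS 5d value. Cd74 lay at 10.3 to 38.5 FPKM in TIC, above every FCS 5d value. The part of such cells in the class II fall was not tested.

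The promoters of the class II genes are shown because these genes fell together. Each line is the 250 bases before the gene's start in the RefSeq table for GRCr8, 5′ to 3′ on the gene's strand, and capitals mark CCAAT or its reverse ATTGG, the box bound by the factor NF-Y.
RT1-Da promoter (chr20:4515165-4515414, plus strand): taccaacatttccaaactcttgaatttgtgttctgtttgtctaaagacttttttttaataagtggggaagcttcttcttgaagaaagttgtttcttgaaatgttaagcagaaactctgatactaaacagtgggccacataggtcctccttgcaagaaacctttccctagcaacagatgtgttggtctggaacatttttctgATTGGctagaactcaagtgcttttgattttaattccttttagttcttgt
RT1-Db1 promoter (chr20:4560163-4560412, minus strand): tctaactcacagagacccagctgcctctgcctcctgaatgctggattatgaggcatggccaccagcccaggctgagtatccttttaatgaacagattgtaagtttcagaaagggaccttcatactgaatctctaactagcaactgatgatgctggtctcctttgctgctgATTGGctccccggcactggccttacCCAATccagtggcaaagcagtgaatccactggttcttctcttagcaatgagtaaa
RT1-Ba promoter (chr20:4576807-4577056, plus strand): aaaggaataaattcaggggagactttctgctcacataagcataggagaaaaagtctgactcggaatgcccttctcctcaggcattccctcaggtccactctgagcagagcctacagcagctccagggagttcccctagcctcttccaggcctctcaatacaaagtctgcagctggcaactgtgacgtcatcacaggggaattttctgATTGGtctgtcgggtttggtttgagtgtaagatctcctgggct
RT1-Bb promoter (chr20:4604119-4604368, minus strand): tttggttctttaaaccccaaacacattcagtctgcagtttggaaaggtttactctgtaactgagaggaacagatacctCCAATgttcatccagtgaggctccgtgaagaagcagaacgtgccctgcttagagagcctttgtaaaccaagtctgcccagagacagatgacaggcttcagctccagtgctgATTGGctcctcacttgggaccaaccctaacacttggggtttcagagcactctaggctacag
RT1-DMa promoter (chr20:4712336-4712585, minus strand): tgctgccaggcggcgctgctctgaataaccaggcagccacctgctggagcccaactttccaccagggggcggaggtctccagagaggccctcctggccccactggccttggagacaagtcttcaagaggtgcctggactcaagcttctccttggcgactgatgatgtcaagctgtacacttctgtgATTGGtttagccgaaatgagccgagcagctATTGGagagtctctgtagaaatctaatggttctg
The match nearest the start lies 34 to 61 bases before it in these genes. Both strands were searched, and a match is a description of the letters, not a site or a cause. Of the lower members of the antigen presentation list with a promoter in the table, 9 of 10 (90.0%) held the motif, against 34.3% of 27457 promoters and 36.2% of those of tested genes. Over all members of the list it was 13 of 23. The coordinates belong to GRCr8, and the deposited values were made on another build.

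Lipid uptake genes and several genes of disease-associated microglia were among the larger rises. Lpl, the lipase that frees fatty acids from lipoproteins, stood at 587, 490.2, 626 and 225 FPKM in FCS 5d 1 to 4, against 0, 1.2 and 1.99 FPKM in Acute 1 to 3. FCS 5d 4 was the lowest culture, and every culture was far above every Acute value (log2 7.91 ± 0.37 SE, limma adjusted p = 6.4e-14). The fatty acid carrier Fabp5 stood at 182, 352, 349 and 109.9 FPKM in FCS 5d 1 to 4, against 1.60, 3.93 and 0 FPKM in Acute 1 to 3, with no overlap (log2 6.58 ± 0.45 SE, limma adjusted p = 9.3e-11). A related carrier, Fabp4, stood at 151, 163, 342 and 44.7 FPKM in FCS 5d and 0, 2.75 and 2.14 FPKM in Acute, again lowest in FCS 5d 4 (log2 5.95 ± 0.82 SE, limma adjusted p = 5.5e-06). The lysosomal glycoprotein Gpnmb stood at 2248, 2527, 2676 and 1396 FPKM in FCS 5d 1 to 4, against 27.4, 18.2 and 46.5 FPKM in Acute 1 to 3. All 4 cultures were far above all 3 fresh isolates (log2 6.18 ± 0.41 SE, limma adjusted p = 5e-11). Spp1, the secreted phosphoprotein osteopontin, stood at 4192, 352, 6015 and 63.0 FPKM in FCS 5d 1 to 4, against 27.7, 0.348 and 4.86 FPKM in Acute 1 to 3. The cultures spread widely, with FCS 5d 4 lowest and FCS 5d 3 highest, and did not overlap Acute (log2 7.15 ± 1.41 SE, limma adjusted p = 0.00035). Of 31 tested disease-associated genes 12 were higher and 6 lower, against 12.0% and 27.9% of all tested genes. Apoe and Trem2 were among the falls. The summed-FPKM term gave 18 higher and 1 lower, with a median of log2 2.02 against 0.78. Apoe, the main lipid carrier of the brain, stood at 750.2, 2224, 1409 and 3635 FPKM in FCS 5d 1 to 4, against 20796, 7171 and 17436 FPKM in Acute 1 to 3 (log2 -3.01 ± 0.76 SE, limma adjusted p = 0.0035), and its change was log2 -0.50 (adjusted p = 0.597) with the summed-FPKM term. Lilrb4, an inhibitory receptor, stood at 104, 49.5, 56.6 and 36.2 FPKM in FCS 5d and 0, 0.899 and 7.32 FPKM in Acute (log2 4.53 ± 0.46 SE, limma adjusted p = 5.6e-08).

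Most tested genes typical of macrophages at the borders of the brain were higher in FCS 5d, and so were some scavenger receptors. Border macrophages line the meninges and vessels and are marked by the mannose receptor Mrc1 and by Lyve1. Mrc1 stood at 77.9, 112, 89.7 and 137 FPKM in FCS 5d 1 to 4, against 3.43, 3.46 and 5.30 FPKM in Acute 1 to 3. The cultures were close together and far above Acute (log2 4.36 ± 0.31 SE, limma adjusted p = 2.1e-10). The class A scavenger receptor Msr1 stood at 233, 290.0, 269.8 and 231 FPKM in FCS 5d 1 to 4, against 4.64, 0 and 12.4 FPKM in Acute 1 to 3 (log2 5.92 ± 0.48 SE, limma adjusted p = 1.7e-09). The endocytic adaptor Dab2 averaged 246 ± 15.9 FPKM in FCS 5d and 9.90 ± 5.26 FPKM in Acute (log2 4.61 ± 0.30 SE, limma adjusted p = 2.3e-11), and the folate receptor Folr2 averaged 219.6 ± 14.8 FPKM in FCS 5d and 18.6 ± 5.44 FPKM in Acute (log2 3.52 ± 0.27 SE, limma adjusted p = 8e-10). Both had a small spread in culture. Siglec1, which binds sialic acids, stood at 8.82, 13.2, 11.3 and 5.53 FPKM in FCS 5d 1 to 4 and was listed at 0 in all 3 Acute libraries (limma adjusted p = 3.3e-07). Colec12, a scavenger receptor of the collectin family, stood at 47.5, 63.5, 57.5 and 55.8 FPKM in FCS 5d 1 to 4, against 0, 2.15 and 3.75 FPKM in Acute 1 to 3 (log2 4.53 ± 0.48 SE, limma adjusted p = 1.5e-07). Of 14 tested border macrophage genes 9 were higher and 3 lower, against 12.0% and 27.9% of all tested genes. The median of the list was log2 2.78. Lyve1 was not called, at 19.8, 75.1, 16.1 and 205 FPKM in FCS 5d and 108, 49.2 and 127 FPKM in Acute (log2 -0.87 ± 0.70 SE, limma adjusted p = 0.34), and the lectin Clec10a was lower, at 0, 0.258, 1.53 and 2.28 FPKM in FCS 5d and 21.3, 29.4 and 41.3 FPKM in Acute (log2 -4.09 ± 0.52 SE, limma adjusted p = 2e-06). The list as a whole took 0.447 to 1.2% of FPKM in FCS 5d and 1.30 to 3.21% in Acute and Apoe is a member. Of 32 phagocytic, scavenger and Fc receptor genes 8 were higher and 11 lower, against 12.0% and 27.9% of all tested genes. Among the falls were genes whose products help to clear dying cells. The bridging protein Mfge8 stood at 0, 2.68, 3.28 and 5.87 FPKM in FCS 5d and 75.3, 123 and 160.3 FPKM in Acute (log2 -5.16 ± 0.66 SE, limma adjusted p = 1.9e-06), Pros1, a ligand of TAM receptors, averaged 10.6 ± 5.82 FPKM in FCS 5d and 133 ± 54.7 FPKM in Acute (log2 -3.56 ± 0.41 SE, limma adjusted p = 3.7e-07), and the inhibitory receptor Havcr2 averaged 9.48 ± 2.65 FPKM in FCS 5d and 110.0 ± 8.48 FPKM in Acute (log2 -3.44 ± 0.26 SE, limma adjusted p = 5e-10).

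**Figure D3:**
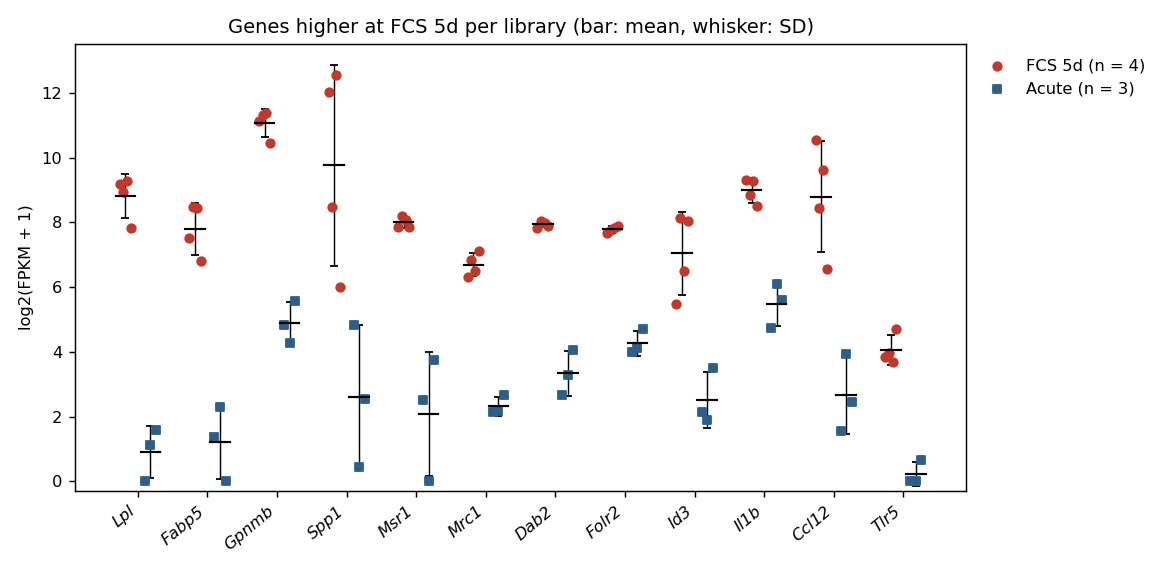
Values of 12 genes that were higher in culture, on the log2(FPKM + 1) scale, in each FCS 5d library (n = 4, circles) and each Acute library (n = 3, squares), with the group mean (bar) and SD (whisker). Every FCS 5d point lies above every Acute point of the same gene, and the cultures spread most in Spp1 and Ccl12.

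Inflammatory genes rose in part. The cytokine Il1b stood at 632, 462, 622 and 361 FPKM in FCS 5d 1 to 4, against 25.8, 66.7 and 47.8 FPKM in Acute 1 to 3, and all cultures exceeded all fresh isolates (log2 3.51 ± 0.34 SE, limma adjusted p = 3.8e-08). The chemokine Ccl12 stood at 1498, 345, 782 and 93.5 FPKM in FCS 5d 1 to 4, against 1.95, 14.4 and 4.46 FPKM in Acute 1 to 3, with FCS 5d 1 highest and FCS 5d 4 lowest (log2 6.14 ± 0.73 SE, limma adjusted p = 7.9e-07). Ccl7 followed the same order of cultures at 616, 197, 309.6 and 98.6 FPKM in FCS 5d and 23.5, 16.0 and 5.97 FPKM in Acute (log2 4.12 ± 0.65 SE, limma adjusted p = 2.8e-05). Of 32 tested cytokines and chemokines 8 were higher and 1 was lower, against 12.0% and 27.9% of all tested genes. The lower one, Ccl5, which T and NK cells also make, was listed at 0 in all 4 FCS 5d libraries, and stood at 33.4, 136 and 82.7 FPKM in Acute 1 to 3 (limma adjusted p = 2.3e-09). Among Toll-like receptor and NF-kB genes 9 of 32 were higher and 5 lower, against the same shares. The flagellin receptor Tlr5 stood at 13.3, 14.6, 11.9 and 25.3 FPKM in FCS 5d 1 to 4, against 0, 0 and 0.566 FPKM in Acute 1 to 3 (log2 3.84 ± 0.36 SE, limma adjusted p = 2.1e-08), and Cd14, the co-receptor for lipopolysaccharide, averaged 811 ± 194 FPKM in FCS 5d and 82.9 ± 29.8 FPKM in Acute (log2 3.31 ± 0.37 SE, limma adjusted p = 3.4e-07). Tlr3, which senses double-stranded RNA, was lower and averaged 6.41 ± 2.90 FPKM in FCS 5d and 58.6 ± 21.3 FPKM in Acute (log2 -3.02 ± 0.34 SE, limma adjusted p = 3.2e-07). The inhibitory ligand Cd274 (PD-L1) stood at 12.5, 8.80, 15.6 and 4.45 FPKM in FCS 5d 1 to 4 and was listed at 0 in all 3 Acute libraries (limma adjusted p = 5.7e-07).

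The interferon response list divided, with 11 of 45 higher and 5 lower, against 12.0% and 27.9% of all tested genes. Rescaling gave 18 higher and 3 lower, and the summed-FPKM term gave 5 and 3. The rises were led by 2′-5′ oligoadenylate synthases, which make the activator of an RNA-degrading enzyme. Oas2 stood at 21.1, 33.3, 22.5 and 7.90 FPKM in FCS 5d 1 to 4 and was listed at 0 in all 3 Acute libraries (limma adjusted p = 9.2e-05). Oas1a stood at 24.9, 31.4, 27.2 and 9.10 FPKM in FCS 5d 1 to 4, against 0, 3.08 and 3.44 FPKM in Acute 1 to 3, lowest in FCS 5d 4 among the cultures and still above Acute (log2 3.07 ± 0.58 SE, limma adjusted p = 0.00024). The Oas1a call was lost with the summed-FPKM term (adjusted p = 0.0502) and among the libraries with few zeros (adjusted p = 0.063). Oas genes are near-identical copies whose reads may be divided between them. The 250 bases before the Oas1a start are shown with the interferon response pattern (GAAA, any 2 bases, GAAA) in capitals, which occurs in 3.3% of all promoters, 2.7% of those of tested genes and 20 of 35 members of the list (57.1%).
Oas1a promoter (chr12:41330216-41330465, plus strand): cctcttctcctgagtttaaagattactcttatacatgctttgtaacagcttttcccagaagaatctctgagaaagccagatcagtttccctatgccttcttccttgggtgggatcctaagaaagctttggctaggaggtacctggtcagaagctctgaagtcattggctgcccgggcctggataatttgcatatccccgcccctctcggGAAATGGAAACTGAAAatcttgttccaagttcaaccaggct
The matches lie 41 and 35 bases before the start and overlap. The reverse pattern (TTTC, any 2 bases, TTTC) was searched too. Of the higher members of the list with a promoter, 5 of 8 held the pattern. Among the falls was the transcription factor Irf1, which averaged 14.8 ± 2.16 FPKM in FCS 5d and 62.0 ± 11.2 FPKM in Acute (log2 -1.99 ± 0.40 SE, limma adjusted p = 0.00048). Its adjusted p was 0.0625 with the summed-FPKM term and 0.0728 among the libraries with many zeros.

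Cell cycle genes were higher in FCS 5d. Of 57 tested members 38 were higher and 2 lower, against 12.0% and 27.9% of all tested genes. The list had a median of log2 1.5 and took 0.721 to 0.811% of FPKM in FCS 5d and 0.246 to 0.487% in Acute. The number of higher members was 24 with the summed-FPKM term and 11 among the libraries with many zeros. Cdk1, the kinase that drives entry into mitosis, stood at 77.1, 113, 98.3 and 105 FPKM in FCS 5d 1 to 4, against 18.7, 27.9 and 14.2 FPKM in Acute 1 to 3 (log2 2.26 ± 0.38 SE, limma adjusted p = 5.5e-05). Among the libraries with many zeros its adjusted p was 0.0552. The proliferation antigen Mki67 stood at 21.9, 18.7, 18.6 and 22.3 FPKM in FCS 5d 1 to 4, against 4.49, 8.91 and 2.73 FPKM in Acute 1 to 3 (log2 1.86 ± 0.46 SE, limma adjusted p = 0.0027), and its adjusted p was 0.426 with the summed-FPKM term and 0.0763 among the libraries with many zeros. Uhrf1, which copies DNA methylation to new strands, stood at 25, 22.6, 27.0 and 15.9 FPKM in FCS 5d 1 to 4, against 0, 1.02 and 2.86 FPKM in Acute 1 to 3 (log2 3.55 ± 0.42 SE, limma adjusted p = 5.9e-07). Cultures of each of these genes lay close together and above every Acute value. Ube2c, the ubiquitin carrier of the anaphase-promoting complex, averaged 146 ± 22.6 FPKM in FCS 5d and 20.7 ± 18 FPKM in Acute (log2 3.08 ± 0.38 SE, limma adjusted p = 1.3e-06), and the spindle kinesin Kif2c stood at 8.23, 19.8, 13.3 and 19.8 FPKM in FCS 5d and 0, 0 and 3.49 FPKM in Acute (log2 3.23 ± 0.53 SE, limma adjusted p = 4.5e-05). Cyclin D1 (Ccnd1) averaged 142 ± 25.1 FPKM in FCS 5d and 25.7 ± 24.7 FPKM in Acute (log2 2.84 ± 0.45 SE, limma adjusted p = 3.3e-05). The mitotic kinase Aurka went against the list and averaged 24.6 ± 4.90 FPKM in FCS 5d and 96.3 ± 24.8 FPKM in Acute (log2 -1.91 ± 0.32 SE, limma adjusted p = 7.4e-05). The Cdk1 promoter is shown because it holds both CCAAT and TTTGAA. Capitals mark CCAAT or ATTGG and the cell cycle element TTTGAA.
Cdk1 promoter (chr20:19265043-19265292, plus strand): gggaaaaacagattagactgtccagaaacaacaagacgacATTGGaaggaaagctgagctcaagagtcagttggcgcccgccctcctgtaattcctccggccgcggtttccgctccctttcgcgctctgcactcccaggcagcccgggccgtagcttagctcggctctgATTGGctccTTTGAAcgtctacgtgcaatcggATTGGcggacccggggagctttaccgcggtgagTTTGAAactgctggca
ATTGG stands 210, 81 and 49 bases before the start, and TTTGAA stands 72 and 16 bases before it. CCAAT in either direction was found in 30 of 43 cell cycle promoters (69.8%), and in 20 of 28 of those of the higher members (71.4%). It was found in 34.3% of all promoters and 36.2% of those of tested genes. TTTGAA or TTCAAA was found in 13 of 43 (30.2%), against 16.0% of all promoters and 10.1% of those of tested genes.

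**Figure D4:**
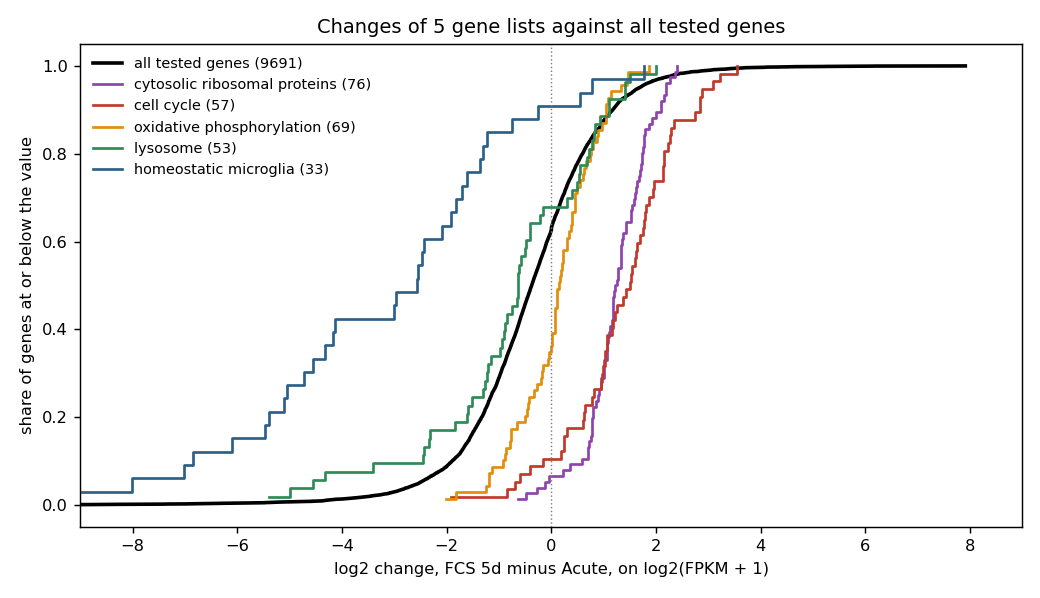
Cumulative share of genes against the log2 change, FCS 5d minus Acute on the log2(FPKM + 1) scale, for all 9691 tested genes and for 5 gene lists. The ribosomal protein and cell cycle curves lie to the right of that of all genes, with medians of 1.24 and 1.5, and the homeostatic microglia curve lies far to the left, with a median of -2.57.

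Protein synthesis and energy genes were mixed. Of 76 tested cytosolic ribosomal proteins 48 were higher and 0 lower, against 12.0% and 27.9% of all tested genes. The list had a median of log2 1.24 and took 9.10 to 12.1% of FPKM in FCS 5d and 2.24 to 4.44% in Acute. The number higher was 20 without Acute 2 and 16 among the libraries with few zeros. Rps12, a protein of the small subunit, averaged 245 ± 52.8 FPKM in FCS 5d and 56.1 ± 46.6 FPKM in Acute (log2 2.40 ± 0.36 SE, limma adjusted p = 1.6e-05). Ribosomal protein genes have many processed copies, so their reads are uncertain. The 18S ribosomal RNA gene Rn18s, which a poly-A library should hold little of, stood at 9290.3, 3556, 2657 and 3016 FPKM in FCS 5d 1 to 4, against 19.9, 16.4 and 2107 FPKM in Acute 1 to 3. Acute 1 and Acute 2 were far below Acute 3, and without the libraries with many zeros the change was log2 0.54 (adjusted p = 0.351), against log2 5.46 with all libraries. Of 69 oxidative phosphorylation subunits 10 were higher and 5 lower, against 12.0% and 27.9% of all tested genes. The counts were 31 and 3 with rescaling and 48 and 0 with the summed-FPKM term. Without Acute 2 the counts were 3 and 3. Of 35 genes of glycolysis and the hypoxia response 13 were higher and 7 lower, against 12.0% and 27.9% of all tested genes. Hexokinase 3 (Hk3) stood at 65.5, 68.9, 81.6 and 31.7 FPKM in FCS 5d and 2.09, 5.64 and 3.18 FPKM in Acute (log2 3.75 ± 0.40 SE, limma adjusted p = 1.4e-07) and Gapdh averaged 925 ± 76.5 FPKM in FCS 5d and 282 ± 163 FPKM in Acute (log2 1.87 ± 0.29 SE, limma adjusted p = 2.2e-05). Aldoc, the aldolase of brain, stood at 1.38, 0, 1.08 and 0.307 FPKM in FCS 5d and 14, 8.84 and 16.0 FPKM in Acute (log2 -3.09 ± 0.40 SE, limma adjusted p = 2.4e-06), and the mitophagy receptor Bnip3l averaged 25.3 ± 5.81 FPKM in FCS 5d and 147 ± 66.5 FPKM in Acute (log2 -2.41 ± 0.35 SE, limma adjusted p = 1.3e-05).

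More lysosomal genes were lower than higher in FCS 5d. Cst3, a secreted inhibitor of cathepsins, stood at 698, 1079, 1023 and 2049 FPKM in FCS 5d 1 to 4, against 39249.8, 22214 and 119487 FPKM in Acute 1 to 3 (log2 -5.39 ± 0.56 SE, limma adjusted p = 8.8e-08). Acute 3 was the highest by far, and the groups were apart. The protease Ctss stood at 474, 605, 513 and 1004 FPKM in FCS 5d 1 to 4, against 16776, 10385 and 17977 FPKM in Acute 1 to 3 (log2 -4.56 ± 0.34 SE, limma adjusted p = 4.3e-10). Ctsh, an aminopeptidase, averaged 399.6 ± 116 FPKM in FCS 5d and 2152 ± 267 FPKM in Acute (log2 -2.46 ± 0.28 SE, limma adjusted p = 3.6e-07). Cathepsin E (Ctse) was nearly absent from culture, at 0, 0.209, 0.309 and 0.264 FPKM in FCS 5d and 45.3, 38.8 and 28.1 FPKM in Acute. Against these, the proton pump subunit Atp6v1a averaged 72.1 ± 10.9 FPKM in FCS 5d and 18.5 ± 8.70 FPKM in Acute (log2 2.00 ± 0.29 SE, limma adjusted p = 1.2e-05). Of 53 tested members 9 were higher and 21 lower, with a median of log2 -0.64. Over all tested genes 12.0% were higher and 27.9% lower, with a median of log2 -0.38. With the summed-FPKM term the list turned round, to 16 higher, 9 lower and a median of log2 0.36.

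Among called genes, those of sterol synthesis and uptake were mostly lower, and those of fatty acid handling went both ways. Msmo1, a C4-methyl sterol oxidase, stood at 8.91, 13.5, 17.6 and 8.79 FPKM in FCS 5d 1 to 4, against 113, 134 and 54.9 FPKM in Acute 1 to 3 (log2 -2.90 ± 0.33 SE, limma adjusted p = 3.3e-07). The lysosomal cholesterol exporter Npc1 averaged 9.98 ± 1.10 FPKM in FCS 5d and 32.5 ± 6.01 FPKM in Acute (log2 -1.60 ± 0.25 SE, limma adjusted p = 2.9e-05). Scd2, the stearoyl-CoA desaturase of brain, stood at 19.4, 13.1, 36.3 and 17.6 FPKM in FCS 5d 1 to 4, against 111, 402 and 55.9 FPKM in Acute 1 to 3 (log2 -2.70 ± 0.42 SE, limma adjusted p = 2.4e-05), with Acute 2 the highest. Both groups were apart in each of these genes. Of 27 cholesterol genes 14 were lower and 1 higher, against 27.9% and 12.0% of all tested genes. Lower and higher members numbered 8 and 1 with rescaling and 4 and 1 with the summed-FPKM term. Of 28 LXR target and fatty acid genes 6 were higher and 11 lower, against 12.0% and 27.9% of all tested genes. The counts were 9 and 8 with rescaling and 7 and 5 with the summed-FPKM term. Dgat2, which makes triglyceride, stood at 0, 1.84, 1.99 and 1.06 FPKM in FCS 5d and 9.66, 28.7 and 17.3 FPKM in Acute (log2 -3.14 ± 0.47 SE, limma adjusted p = 1.5e-05), and the cholesterol exporter Abca1 averaged 23.1 ± 9.94 FPKM in FCS 5d and 2.86 ± 0.915 FPKM in Acute (log2 2.57 ± 0.30 SE, limma adjusted p = 6.6e-07).

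Of 36 antioxidant and iron genes 13 were higher and 4 lower in FCS 5d, against 12.0% and 27.9% of all tested genes. Rescaling gave 21 higher and 4 lower. The ferric reductase Steap3 stood at 9.82, 11.7, 12.8 and 10.9 FPKM in FCS 5d and 0, 0 and 0.905 FPKM in Acute (log2 3.31 ± 0.43 SE, limma adjusted p = 2.9e-06), the mitochondrial superoxide dismutase Sod2 averaged 474 ± 221 FPKM in FCS 5d and 51.2 ± 11.7 FPKM in Acute (log2 3.07 ± 0.39 SE, limma adjusted p = 2e-06), and the quinone reductase Nqo1 averaged 55.5 ± 22 FPKM in FCS 5d and 13.5 ± 7.46 FPKM in Acute (log2 2.07 ± 0.35 SE, limma adjusted p = 6.5e-05). Each lay higher in all cultures than in all fresh isolates. Mgst1, a membrane glutathione transferase, stood at 0, 0, 1.26 and 0.537 FPKM in FCS 5d and 52.6, 175 and 40.0 FPKM in Acute (log2 -5.74 ± 0.65 SE, limma adjusted p = 3.2e-07). Cybrd1, a ferric reductase that absorbs dietary iron in the gut, stood at 48.7, 42.9, 56.5 and 35.9 FPKM in FCS 5d 1 to 4, against 0.310, 0.760 and 3.54 FPKM in Acute 1 to 3 (log2 4.41 ± 0.43 SE, limma adjusted p = 4.1e-08). Enzymes of aldehyde and toxin handling were among the 12 largest rises. The aldo-keto reductase Akr1b8 stood at 90.7, 132, 104 and 74.1 FPKM in FCS 5d and 0, 0 and 5.26 FPKM in Acute (log2 5.75 ± 0.48 SE, limma adjusted p = 2.4e-09), and the glucuronosyltransferase Ugt1a6, whose exons are largely shared with its neighbours so that its reads are uncertain, stood at 29.6, 33.1, 55.0 and 58.4 FPKM in FCS 5d 1 to 4 and was listed at 0 in all 3 Acute libraries (limma adjusted p = 1.6e-12). Among 29 genes of amino acid stress and of the unfolded protein response, 6 were higher and 9 lower, shares not far from those of all tested genes (12.0% and 27.9%). The chaperone partner Dnajb9 averaged 7.99 ± 1.26 FPKM in FCS 5d and 80.9 ± 23.2 FPKM in Acute (log2 -3.16 ± 0.33 SE, limma adjusted p = 1e-07), and Xbp1, a transcription factor of the same response, averaged 66.8 ± 4.6 FPKM in FCS 5d and 269.7 ± 12.3 FPKM in Acute (log2 -2.0 ± 0.22 SE, limma adjusted p = 2e-07).

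TGF-beta and BMP genes were called about as often as all tested genes. Id3, a target of BMP and TGF-beta signals that blocks other transcription factors, stood at 44.0, 282, 90.0 and 261 FPKM in FCS 5d 1 to 4, against 3.36, 2.75 and 10.2 FPKM in Acute 1 to 3. FCS 5d 2 and FCS 5d 4 were highest, and all cultures exceeded Acute (log2 4.54 ± 0.59 SE, limma adjusted p = 2.4e-06). Pmepa1, a feedback inhibitor that TGF-beta induces, stood at 0, 0, 0 and 0.700 FPKM in FCS 5d and 24.4, 34.4 and 15.6 FPKM in Acute, and Tgfbi, a matrix protein that TGF-beta induces, at 0, 0.285, 0 and 0.720 FPKM in FCS 5d and 2.74, 29.4 and 13.4 FPKM in Acute (limma adjusted p = 7.5e-05 and 1.4e-05). Of 20 tested members 2 were higher and 7 lower, against 12.0% and 27.9% of all tested genes. Immediate early genes were lower in 15 of 29 and higher in 1, and the count depends on Acute 2. Dusp1, a phosphatase induced within minutes of stress, stood at 6.79, 12.8, 17.4 and 11.3 FPKM in FCS 5d 1 to 4, against 50.9, 2657 and 41.9 FPKM in Acute 1 to 3, and Junb, a subunit of the AP-1 transcription factor, stood at 33.0, 37.2, 45.0 and 34.8 FPKM in FCS 5d 1 to 4, against 168, 5438 and 120.2 FPKM in Acute 1 to 3. Acute 2 was far above the other Acute libraries for both genes. Both calls were lost with the summed-FPKM term (adjusted p = 0.141 for Dusp1 and 0.0909 for Junb) and among the libraries with few zeros (0.238 and 0.0546). Without Acute 2 the changes were log2 -1.92 for Dusp1 and -1.91 for Junb, against -3.86 and -3.65 with it, and 9 members were lower and 3 higher.

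Of 49 actin, annexin and adhesion genes 18 were higher in FCS 5d and 6 lower, and over the alternatives 10 to 32 were higher, with the most under rescaling (32 higher and 6 lower). Beside this and each later list here stand the shares over all tested genes, 12.0% higher and 27.9% lower. Annexins moved in opposite directions. The membrane-binding Anxa4 averaged 153 ± 39.2 FPKM in FCS 5d and 22.7 ± 5.92 FPKM in Acute (log2 2.70 ± 0.26 SE, limma adjusted p = 3.1e-08) and Anxa5 averaged 142 ± 50.4 FPKM in FCS 5d and 24.2 ± 6.25 FPKM in Acute (log2 2.45 ± 0.34 SE, limma adjusted p = 5.3e-06), while Anxa1, which neutrophils also hold in quantity, stood at 25.1, 34.0, 56.6 and 28.7 FPKM in FCS 5d and 313, 2635 and 287 FPKM in Acute (log2 -4.13 ± 0.59 SE, limma adjusted p = 8.3e-06). The hyaluronan receptor Cd44 averaged 36.7 ± 5.31 FPKM in FCS 5d and 10.6 ± 10.0 FPKM in Acute (log2 2.02 ± 0.36 SE, limma adjusted p = 0.00013). Integrins likewise divided, with Itga4 at 42.6, 51.2, 46.2 and 40.7 FPKM in FCS 5d and 0.565, 10.4 and 8.06 FPKM in Acute (log2 3.08 ± 0.43 SE, limma adjusted p = 5.8e-06) and the laminin receptor chain Itga6 at 4.39, 7.66, 6.30 and 12.9 FPKM in FCS 5d and 79.8, 135 and 40.4 FPKM in Acute (log2 -3.21 ± 0.35 SE, limma adjusted p = 2.3e-07). Of 19 eicosanoid genes, which make lipid mediators, 9 were lower, 0 higher and 10 not called, while quantile normalization gave 7 lower and 3 higher. The lower ones included Alox5ap, which presents arachidonic acid to 5-lipoxygenase, at 30.2, 136, 68.0 and 148 FPKM in FCS 5d and 739, 354 and 348 FPKM in Acute (log2 -2.47 ± 0.46 SE, limma adjusted p = 0.00021). Of 16 ion channel genes 4 were higher and 3 lower, led by Clic4, an intracellular chloride channel protein, at 28.6, 43.3, 61.3 and 17.8 FPKM in FCS 5d and 0, 0 and 1.58 FPKM in Acute (log2 4.68 ± 0.55 SE, limma adjusted p = 5.5e-07). Of 15 osteoclast-like genes 4 were higher and 5 lower, or 6 and 2 with the summed-FPKM term, with carbonic anhydrase 2 (Car2) averaging 20.7 ± 6.35 FPKM in FCS 5d and 143 ± 62.1 FPKM in Acute (log2 -2.66 ± 0.36 SE, limma adjusted p = 4.4e-06). Of 15 Alzheimer risk genes of microglia 2 were higher and 7 lower, but 3 and 3 with the summed-FPKM term, where the median was log2 -0.13 against -1.31. Among them, the adaptor Abi3 stood at 7.77, 5.36, 5.92 and 20.6 FPKM in FCS 5d and 199, 132 and 339 FPKM in Acute (log2 -4.45 ± 0.59 SE, limma adjusted p = 3.6e-06), and Cd2ap, a scaffold at the actin cortex, averaged 35.2 ± 5.53 FPKM in FCS 5d and 9.39 ± 3.97 FPKM in Acute (log2 1.85 ± 0.26 SE, limma adjusted p = 8e-06).

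The TIC and FCS 3d cultures place these changes among the other conditions. The effects of FCS 5d and of either culture against Acute share the Acute libraries, so the difference between them was tested directly as FCS 5d against TIC and against FCS 3d. Against TIC 1251 genes differed (12.9%), 466 higher in FCS 5d (4.81%) and 785 lower (8.10%), and against FCS 3d 61 differed (0.629%), 27 higher (0.279%) and 34 lower (0.351%), with 742 at an unadjusted p under 0.05. Of the 3861 genes that differed from Acute, 3216 were not called against TIC. Genes higher than in both Acute and TIC numbered 196, and genes lower than in both numbered 282. Another 99 were higher than in Acute and lower than in TIC, and 68 were lower than in Acute and higher than in TIC.

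C1q was far higher than in the serum-free culture. C1qb stood at 13.6 to 54.0 FPKM in TIC (median 20.2 FPKM) and was far higher in every FCS 5d library (log2 5.53 ± 0.37 SE, limma adjusted p = 5.4e-10), and C1qa and C1qc were higher by log2 5.03 and 5.16. FCS 5d levels of C1q thus lay between TIC and Acute. Of 21 complement genes 9 were higher and 4 lower than in TIC. Mrc1 stood at 4.79 to 14.2 FPKM in TIC (median 8.32 FPKM) (log2 3.43 ± 0.27 SE, limma adjusted p = 6e-09) and Id3 at 0 to 3.31 FPKM in TIC (median 0.253 FPKM) (log2 6.45 ± 0.50 SE, limma adjusted p = 5.8e-09), so for both genes FCS 5d exceeded TIC as well as Acute. Rarres1, a membrane protein induced by retinoids, stood at 90.0, 168, 121 and 312 FPKM in FCS 5d 1 to 4, against 7.92, 0 and 7.24 FPKM in Acute 1 to 3, and at 0 to 4.48 FPKM in TIC (median 1.77 FPKM) (log2 5.84 ± 0.54 SE, limma adjusted p = 7e-08). Of the cell cycle list 40 members were higher and 1 lower than in TIC. Disease-associated genes went the other way, with 0 higher and 12 lower than in TIC. Of 32 cytokines and chemokines 1 was higher and 13 lower than in TIC, where Ccl12 stood at 694 to 1893 FPKM. Fabp5 stood at 901 to 1400.4 FPKM in TIC (median 1216 FPKM) (log2 -2.36 ± 0.38 SE, limma adjusted p = 0.00017) and Akr1b8 at 487 to 1371 FPKM in TIC (median 861 FPKM) (log2 -3.15 ± 0.40 SE, limma adjusted p = 9.9e-06), levels above FCS 5d, which was above Acute. Scd2 stood at 350.0 to 576 FPKM in TIC (median 472 FPKM) and Msmo1 at 46.1 to 103 FPKM in TIC (median 64.0 FPKM), so FCS 5d was the lowest of the 3 groups for both (log2 -4.39 and -2.44 against TIC). Of 33 homeostatic genes 8 were higher and 5 lower than in TIC. P2ry12 stood at 2.65 to 9.89 FPKM in TIC (median 3.94 FPKM) (log2 1.78 ± 0.47 SE, limma adjusted p = 0.012), a call lost without FCS 5d 2 (adjusted p = 0.0598), without FCS 5d 4 (adjusted p = 0.0884), and among the libraries with few zeros (0.0691) or many (0.28). Cd74 stood at 10.3 to 38.5 FPKM in TIC (median 19.1 FPKM) and was lower again in FCS 5d (log2 -3.11 ± 0.51 SE, limma adjusted p = 0.00018), though its adjusted p was 0.246 among the libraries with many zeros.

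**Figure D5:**
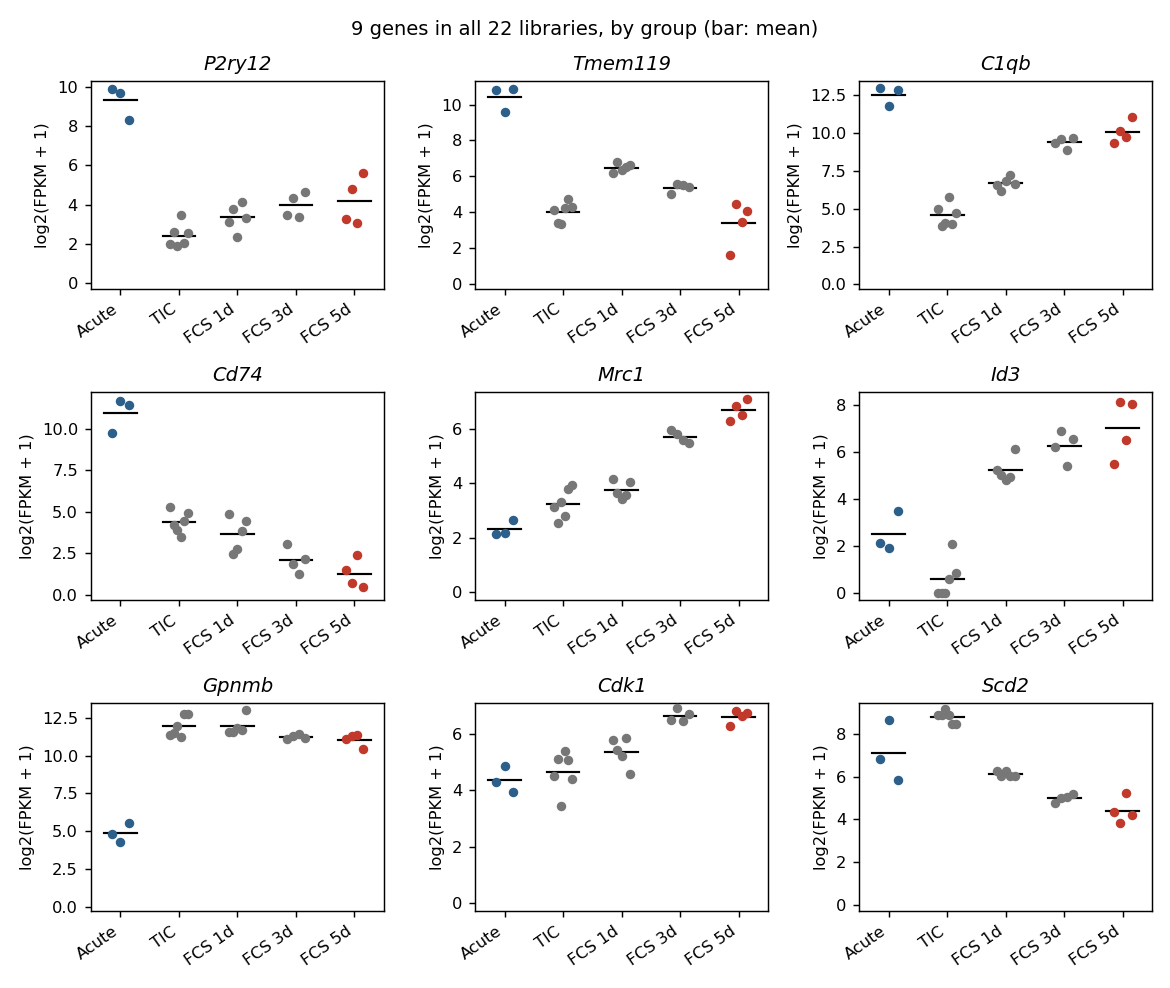
Values of 9 genes on the log2(FPKM + 1) scale in all 22 libraries, in the order Acute (n = 3), TIC (n = 6), FCS 1d (n = 5), FCS 3d (n = 4) and FCS 5d (n = 4), with a bar at each mean. C1qb lies between TIC and Acute in the serum cultures. By group mean, Mrc1 and Id3 are highest in FCS 5d, and Scd2 and Cd74 are lowest in FCS 5d. The FCS 5d and FCS 3d points overlap for Id3, Scd2 and Cd74.

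Between 3 and 5 days of serum few genes were called. Tmem119 stood at 31.5 to 46.2 FPKM in FCS 3d and was lower in FCS 5d (log2 -1.97 ± 0.44 SE, limma adjusted p = 0.034). That call was lost without any 1 of the 4 FCS 3d libraries (adjusted p = 0.0646 to 0.125), without FCS 5d 1 (0.107) and without FCS 5d 3 (0.0867), and also at a pseudocount of 0.1 (0.0531), with no filter (0.0536) and among the libraries with few zeros (0.0856) or many (0.0532). Il1b stood at 120.0 to 181 FPKM in FCS 3d and was higher in FCS 5d (log2 1.76 ± 0.32 SE, limma adjusted p = 0.0061). It also stood at 240 to 553 FPKM in TIC and 267 to 652 FPKM in FCS 1d, so both overlapped FCS 5d and FCS 3d was the lowest culture. Cybrd1 at 0.996 to 4.75 FPKM in FCS 3d was higher in FCS 5d too (log2 3.64 ± 0.40 SE, limma adjusted p = 3.2e-05). Havcr2 stood at 22.5 to 35.6 FPKM in FCS 3d and was lower (log2 -1.46 ± 0.24 SE, limma adjusted p = 0.0033). Adgre1, the macrophage surface receptor F4/80, was chosen after its values were seen. It stood at 1717, 1114, 1883 and 1141 FPKM in FCS 5d 1 to 4, against 209, 249 and 216 FPKM in Acute 1 to 3, and it stood at 303 to 325 FPKM in FCS 3d (log2 2.17 ± 0.25 SE, limma adjusted p = 3.2e-05). Among the libraries with few zeros the adjusted p was 0.125 for Havcr2 and 0.0853 for Il1b, and among those with many zeros, where FCS 5d 1 alone stands for its group, it was 0.0532 to 0.221 for the 5 genes. The changes there were no smaller, at log2 -3.66 for Tmem119, 1.94 for Il1b, 3.87 for Cybrd1, -1.96 for Havcr2 and 2.41 for Adgre1.

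The 4 FCS 5d libraries differed among themselves in a recurring way. FCS 5d 2 and FCS 5d 3 were the closest pair (r = 0.974) and FCS 5d 1 and FCS 5d 4 the farthest (r = 0.918). FCS 5d 4 held the highest values of P2ry12, Cx3cr1, Gpr34, C1qb and Ctss and the lowest of Lpl, Fabp5, Gpnmb, Spp1, Ccl12 and Ccl7. Tmem119 was instead highest in FCS 5d 2 and Sall1, narrowly, in FCS 5d 1. The pattern is not particular to FCS 5d, as TIC 4 and FCS 3d 4 also held the highest P2ry12 and the lowest Spp1 of their groups. FCS 5d 1 held the most Ccl12 and Ccl7 and had the most genes at 0. Without FCS 5d 4, 27 homeostatic genes were still lower than in Acute. What sets these cultures apart was not tested.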

How the data were processed

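Expression was given by the authors as FPKM in 1 deposited table of 17284 gene symbols and 22 libraries, with 0 columns outside the samples. Per the labels' protocols, poly-A RNA was made into full-length cDNA (SmartSeq2), tagmented (Nextera XT) and sequenced in pairs. Per the submitters' processing notes, the tools and build named are HISAT2 2.0.3, Cufflinks 2.2.1 and rn6, with no role stated. Neither the gene annotation nor a scaling between libraries is given in the sources used here.

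Values were taken as log2(FPKM + 1), a pseudocount of 1 that understates the change of low genes. Tested were the 9691 genes at 1 FPKM or more in 3 or more libraries, while 5203 were at 0 throughout. An exact 0 may be a failed estimate. One limma 3.58.1 model (R 4.3.3) of the 5 group means used all 22 libraries, with trended, robust variances. Called means a Benjamini-Hochberg adjusted p under 0.05, two-sided. Errors are SD, or SE of the fit for log2 changes. FPKM give no depth, so no counting interval was made. The fit was tested on simulated data.

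Genes were named by a rule. It covers the 12 largest rises and falls that did not overlap, a fixed set, up to 6 called members in each direction and 3 uncalled members of each of 35 lists, and 8 genes of each sign pair against TIC. Some genes it covers are not reported here. Members and lists were chosen with earlier results of these data known. Lists share members. Promoters were matched by symbol for 7479 tested genes. Same-numbered FCS 5d and Acute libraries did not deviate together (r = -0.0261, -0.103 and 0.0377), so numbers were not taken as pairs. The cultures were not compared with each other in this way. Summed FPKM was divided at 500000 and genes at 0 at 800, both after the values were seen, and neither division is called a batch.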

Additional observations from a re-analysis of the deposited data

Results flagged for a closer look

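Among the 4 FCS 5d libraries, 10 of 117 measures had 1 library that stood apart from the other 3 by Dixon's ratio, where chance gives about 1 in 20. That rate does not hold for 5 of them, in which 3 libraries were at 0 and the ratio is at its maximum by construction. FCS 5d 4 was the high one for Abi3 (20.6 FPKM, the others 5.36 to 7.77) and Slc2a5 (2.91 FPKM, the others 1.01 to 1.06), and the only one above 0 for Ltc4s (0.971 FPKM) and Pmepa1 (0.700 FPKM). FCS 5d 2 was the only one above 0 for Batf3 (0.955 FPKM), Gal3st4 (0.174 FPKM) and RT1-Da (0.322 FPKM). FCS 5d 1 was high for Rn18s (9290 FPKM, the others 2657 to 3556) and for genes at 0 (1295, the others 509 to 564), and low in summed FPKM (335470, the others 401195 to 412145). All 4 libraries of Abi3, Slc2a5, Batf3, Gal3st4, Ltc4s, Pmepa1 and RT1-Da lay below every Acute library.

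The change from Acute differed between FCS 5d and TIC, by limma's test of FCS 5d against TIC, in 12 named genes. FCS 5d was higher by log2 5.03 for C1qa, 5.53 for C1qb, 5.16 for C1qc, 6.45 for Id3, 3.43 for Mrc1, 5.84 for Rarres1 and 1.78 for P2ry12. It was lower, at log2 -3.15 for Akr1b8, -3.11 for Cd74, -2.36 for Fabp5, -2.44 for Msmo1 and -4.39 for Scd2. The change also differed between FCS 5d and FCS 3d in 5 named genes, at log2 2.17 for Adgre1, 3.64 for Cybrd1, 1.76 for Il1b, -1.46 for Havcr2 and -1.97 for Tmem119.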

How the results depend on the processing

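Of the 120 genes named above, 118 were called against Acute. Over 21 alternatives, 116 of these kept their direction and 104 their call in every one, and the calls of the 14 others and what ended them are given above. Of the 2 not called, Mbp was called under 3 alternatives, given above, and Lyve1 under 0. Of 12 genes named against TIC 10 kept their call in all 20 alternatives, and of 5 named against FCS 3d 0 did in all 24. The calls higher in FCS 5d numbered 1889 with median-of-ratios rescaling, 1992 with quantile normalization, 715 in a fit of the 2 groups only, 689 among the libraries with few zeros (Acute 3 alone stands for its group and is assumed to vary like the others) and 595 among those with many zeros (FCS 5d 1 alone). The calls lower in FCS 5d numbered 1715 with quantile normalization, 1220 with the summed-FPKM term and 1471 among the libraries with few zeros, where 2160 were called in all. Leaving out 1 library gave 3094 to 4233 calls, 835 to 1368 higher and 2259 to 2865 lower, and leaving out FCS 5d 1 and Acute 2 together, chosen after seeing the data, gave 2899 (991 higher, 1908 lower). Against TIC, 131 genes were called among the libraries with many zeros and 816 to 1441 with 1 FCS 5d or Acute library left out (no TIC library was left out). Against FCS 3d, the calls numbered 102 with rescaling, 119 with quantile normalization, 136 with the summed-FPKM term, 109 with a term for zeros, 22 among the libraries with few zeros, 6 among those with many and 27 to 80 with 1 library left out. Itgam turned to log2 -0.40 and B2m to log2 -0.20 among the libraries with few zeros. The causes were not tested. With the replicate number as a block, 4573 genes were called against Acute (1338 higher, 3235 lower), 1458 against TIC and 158 against FCS 3d. Without the block 61 were called against FCS 3d. Numbers were compared between FCS 5d and Acute only, and whether they pair the cultures was not tested. In TIC, FCS 1d, FCS 3d and FCS 5d alike, P2ry12 ranked libraries 1 to 4 in the order 4, 2, 1, 3. In each of these groups Spp1 was higher in libraries 1 and 3 than in 2 and 4. The tests against TIC and FCS 3d use no pairing. Depth is unknown, and genes near 0 are limited most.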
